A study of Mus musculus with 7 samples.

Results

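Kupffer cells are the resident macrophages of the liver. The RNA of 10 genes that mark Kupffer cells and other macrophages was described here, library by library, in hepatocyte preparations of the WT and WDR6-WKO genotypes. The genes were listed by symbol without a threshold on their values, and all 10 were found among the 14819 entries of the count table. They were *C1qa*, *C1qb*, *C1qc*, *Lyz2*, *Fcgr1*, *Adgre1*, *Clec4f*, *Cd5l*, *Csf1r* and *Marco*. All 10 also passed the filter on low counts, which left 14779 genes for testing.

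The study used these libraries to see how the transcriptome of hepatocytes changes when *Wdr6* is lost. Hepatocytes of male mice were isolated by collagenase perfusion of the liver and kept overnight in culture, without treatment. A first group came from WT mice (4 libraries). The second came from WDR6-WKO mice (3 libraries), a whole-body knockout in which CRISPR–Cas9 removed exon 2 of *Wdr6*, so that the macrophages of these livers carried the deletion as well as the hepatocytes. The age of these mice was not given in the sources used here. The study describes its replicates as biological, the labels do not name the mouse behind each library, and p-values measure the spread between these libraries. *Wdr6* itself was at 44.0 ± 4.03 CPM in WT and 2.38 ± 0.179 CPM in WDR6-WKO. CPM stands for counts scaled to a fixed library total, here after TMM scaling, a step that evens out differences in library composition. Values after ± are s.d., with n = 4 for WT and n = 3 for WDR6-WKO, and the values of single libraries follow the order of the replicate numbers.

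Kupffer cells line the sinusoids, take up particles and dying cells from portal blood and depend on signals through the receptor CSF1R. Collagenase releases them from the liver together with hepatocytes, and RNA of macrophages is commonly found in preparations of hepatocytes. *Clec4f*, a lectin receptor, is the most restricted to Kupffer cells among the 10 genes. *Marco* and *Cd5l* belong to a few kinds of tissue macrophage, while *Lyz2* and *Fcgr1* are shared with monocytes. *C1qa*, *C1qb* and *C1qc* encode the 3 chains of C1q, the recognition molecule of the classical complement pathway.

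The libraries held from 17816913 to 23668940 counted reads. Libraries of the same genotype were not copies of each other, with a chi-square per gene of 3.80 to 8.23 among WT libraries and of 5.14 between WDR6-WKO replicates 1 and 2. WDR6-WKO replicate 3 stood apart, at 14.3 against replicate 1 and 15.9 against replicate 2. Relative to the WT mean, genes rich in G and C were low in this library and genes poor in G and C were high. WDR6-WKO replicates 1 and 2 departed from WT in the opposite direction, by a similar amount. Leaving out replicate 3 therefore does not remove the shift with GC content. Results that rest on replicate 3 are also given without it, and with GC content and length corrected for. This correction was chosen after the data had been seen.

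The levels of the 10 genes were described first, although the presence of reads does not show which cells made the RNA. All were read in every library, from 86 reads of *Fcgr1* in WT replicate 1 to 5732 reads of *Cd5l* in WDR6-WKO replicate 1. Beside them, 9 hepatocyte genes were listed, of which 8 were tested. *Alb*, the gene of serum albumin, was at 7366 ± 730.4 CPM in WT, and the 10 macrophage genes together summed to between 717 and 769 CPM there. Other hepatocyte genes ranged widely in WT. *Apoa1*, *Ttr* and *Hnf4a* had means of 719, 471 and 385 CPM. Means were low for the rest, at 39.4 CPM for *Cps1*, 17.95 CPM for *Cyp2e1*, 1.502 CPM for *Tat* and 1.47 CPM for *Pck1*. Summed over the 10 genes, WDR6-WKO replicates 1, 2 and 3 stood at 944, 1025 and 802 CPM, which is 126, 137 and 107% of the WT mean. All 3 sums were above those of the 4 WT libraries, and replicate 3 was the nearest to them. In such bulk samples, more macrophages and more RNA of these genes per macrophage cannot be told apart.

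All 10 genes had a higher mean in WDR6-WKO than in WT. The median log2 fold change of the 10 was 0.38, against 0.01 over all genes tested. In edgeR's quasi-likelihood test, 4 of the 10 were higher at an adjusted p under 0.05 and 0 were lower, where 6.65% of all genes tested were higher and 6.18% lower. These 4 were *Lyz2*, *Fcgr1*, *C1qc* and *C1qb*. At an adjusted p under 0.1, 7 of the 10 were higher, against 9.95% of all genes tested. The thresholds of the study were an unadjusted p under 0.05 and a log2 fold change of at least 0.35. In the edgeR fit, 4 of the 10 met them, where 6.42% of all genes tested were past them upwards. Here *Marco* took the place of *C1qb*. In DESeq2, the tool of the study, 5 of the 10 met them, and the share over all genes is not given for that fit. The 3 WDR6-WKO libraries lay above the 4 WT libraries, without overlap, for 4 of the 10 genes, against 11.8% of all genes tested. These were *Lyz2*, *Fcgr1*, *C1qc* and *Adgre1*.

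**Figure D1:**
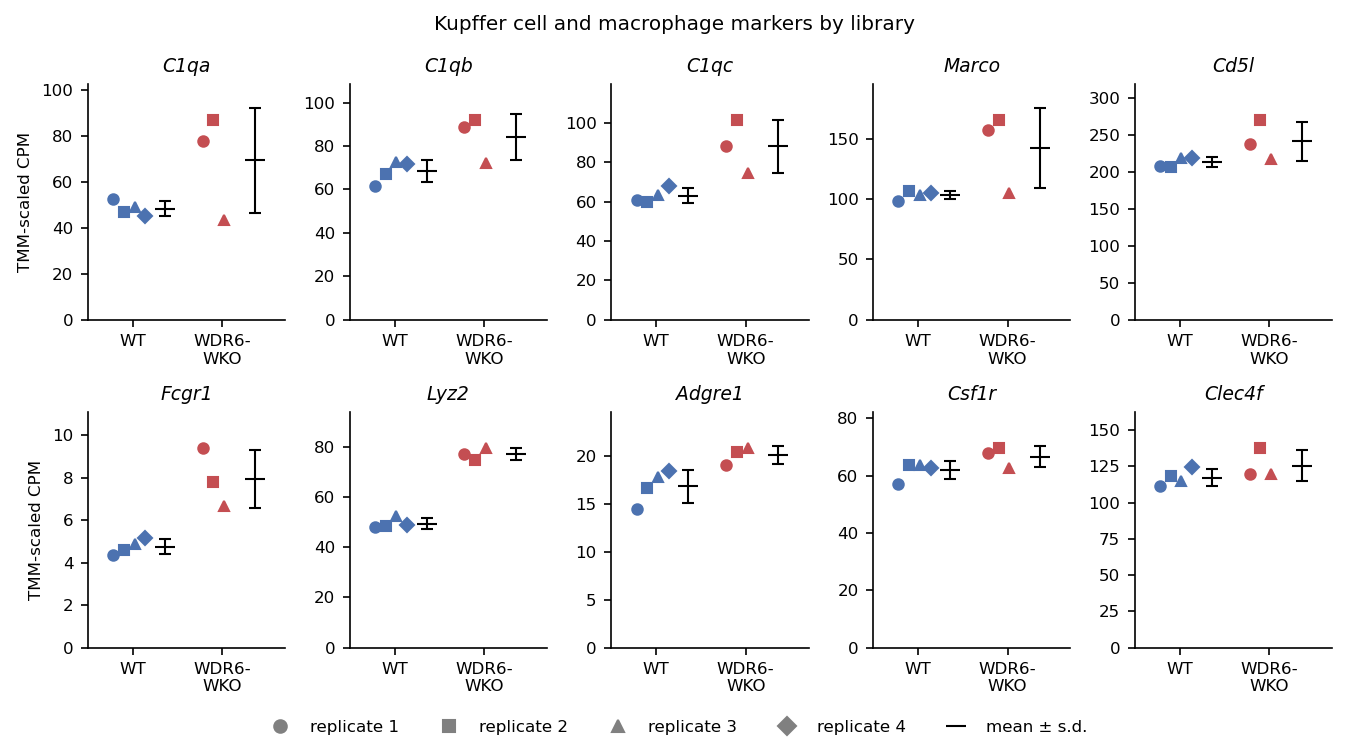
Level of each of the 10 macrophage genes (TMM-scaled CPM, linear axis from 0) in 4 WT libraries (blue) and 3 WDR6-WKO libraries (red), with the replicate number as the symbol and the mean ± s.d. in black. *Lyz2* was high in all 3 WDR6-WKO libraries (74.7 to 79.5), while *C1qa* and *Marco* were high in replicates 1 and 2. In replicate 3, *Marco* lay within the WT range (104.7) and *C1qa* below every WT library (43.6).

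*Lyz2* encodes lysozyme, which breaks bacterial cell walls and is abundant in macrophages, monocytes and neutrophils. It stood at 48.0, 48.6, 52.4 and 48.6 CPM in the WT libraries, against 77.3, 74.7 and 79.5 CPM in those of WDR6-WKO. All WDR6-WKO libraries were above all WT libraries, and replicate 3 was the highest of them. *Lyz2* rose by a log2 fold change of 0.64 (s.e. 0.06, edgeR adjusted p = 2.13e-06), and the exact two-sided permutation test gave p = 0.0286, the smallest it can give with 4 against 3 libraries. The gene (chromosome 10, 117277331 to 117282321, minus strand, GRCm38) shared 15.4% of its 50-base sequences with its neighbour *Lyz1*, which was not analysed here, so some reads may have been split between the pair by the authors' counting.

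*Fcgr1* (chromosome 3, 96282909 to 96293969, minus strand, GRCm38) encodes the high-affinity receptor for IgG, an interferon-inducible gene of macrophages and monocytes. It was the lowest of the 10 genes, at 4.34, 4.61, 4.89 and 5.17 CPM in the WT libraries, against 9.39, 7.80 and 6.65 CPM in those of WDR6-WKO. The groups did not overlap, with WDR6-WKO replicate 3 the nearest to WT. *Fcgr1* had the largest difference of the 10 genes, a log2 fold change of 0.75 (s.e. 0.14, edgeR adjusted p = 0.00238, exact permutation p = 0.0286). Its counting error was also the largest, at up to 10.8% of a library's value. Without WDR6-WKO replicate 3 the log2 fold change was 0.85, and after the correction for GC content and length it was 0.72.

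The 3 genes of C1q lie side by side on the minus strand of chromosome 4 (GRCm38), *C1qb* at 136880129 to 136886187, *C1qc* at 136889804 to 136893065 and *C1qa* at 136895917 to 136898803, each with 3 exons. In liver, their RNA comes mainly from macrophages, whereas most later components of the pathway are made by hepatocytes. *C1qc* stood at 61.0, 59.6, 63.6 and 68.1 CPM in the WT libraries, against 88.3, 101.2 and 74.6 CPM in those of WDR6-WKO. The groups did not overlap. *C1qc* rose by a log2 fold change of 0.48 (s.e. 0.09, edgeR adjusted p = 0.00203, exact permutation p = 0.0286). Without WDR6-WKO replicate 3 it was 0.58, and after the correction for GC content and length it was 0.38.

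*C1qb* stood at 61.6, 67.3, 72.9 and 71.6 CPM in the WT libraries, against 88.7, 91.8 and 72.2 CPM in those of WDR6-WKO. Its replicate 3 lay within the WT range, below WT replicate 3. The log2 fold change was 0.30 (s.e. 0.08, edgeR adjusted p = 0.0235, exact permutation p = 0.0571). This call was lost after the correction for GC content and length, at a log2 fold change of 0.19 (edgeR adjusted p = 0.0521) and without WT replicate 1 or 2 or WDR6-WKO replicate 1 or 2 (adjusted p = 0.0689 to 0.118). It was lost in 7 of the 16 alternative fits in all.

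*C1qa* stood at 52.6, 46.8, 48.9 and 45.1 CPM in the WT libraries, against 77.8, 86.8 and 43.6 CPM in those of WDR6-WKO. WDR6-WKO replicates 1 and 2 were above every WT library, and replicate 3 was below every WT library. *C1qa* thus had the widest spread within WDR6-WKO, with a coefficient of variation of 32.9% against 6.70% in WT. It did not pass the test, with a log2 fold change of 0.53 (s.e. 0.24, edgeR adjusted p = 0.220, exact permutation p = 0.200). Without WDR6-WKO replicate 3 the log2 fold change was 0.76 and passed (edgeR adjusted p = 6.28e-11). With all 7 libraries and the correction for GC content and length it was 0.39 (edgeR adjusted p = 0.163).

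Of the 4 called genes, the promoters of *Fcgr1*, *C1qb* and *C1qc* are shown, because *Fcgr1* had the largest difference and *C1qb* and *C1qc* lie within 1 cluster. RefSeq's promoter table (GRCm38.p6, 250 bases before to 50 after the start) held 7 of the 10 genes. Both strands were searched for GAGGAA, the core of sites bound by PU.1, a transcription factor of the myeloid lineage, for TTCNNNGAA, the interferon-gamma-activated site (GAS) bound by STAT proteins, and for GAAA, NN and GAAA in a row, the interferon-stimulated response element (ISRE). The 3 motifs can overlap each other. Capitals mark the motifs found, and GAGGAA on the other strand reads TTCCTC.

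Fcgr1 promoter, chr3:96293920-96294219, minus strand: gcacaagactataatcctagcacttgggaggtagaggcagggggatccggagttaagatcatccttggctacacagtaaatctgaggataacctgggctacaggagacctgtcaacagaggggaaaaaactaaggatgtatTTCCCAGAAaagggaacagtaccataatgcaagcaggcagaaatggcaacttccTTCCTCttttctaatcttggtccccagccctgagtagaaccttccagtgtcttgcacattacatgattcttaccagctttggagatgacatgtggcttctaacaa

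C1qb promoter, chr4:136886151-136886450, minus strand: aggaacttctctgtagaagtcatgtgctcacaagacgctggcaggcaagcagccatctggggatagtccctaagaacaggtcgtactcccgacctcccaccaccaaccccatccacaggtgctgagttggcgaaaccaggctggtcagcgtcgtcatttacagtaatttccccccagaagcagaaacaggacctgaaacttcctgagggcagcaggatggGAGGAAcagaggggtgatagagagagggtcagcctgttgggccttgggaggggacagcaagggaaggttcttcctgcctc

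C1qc promoter, chr4:136892865-136893164, minus strand: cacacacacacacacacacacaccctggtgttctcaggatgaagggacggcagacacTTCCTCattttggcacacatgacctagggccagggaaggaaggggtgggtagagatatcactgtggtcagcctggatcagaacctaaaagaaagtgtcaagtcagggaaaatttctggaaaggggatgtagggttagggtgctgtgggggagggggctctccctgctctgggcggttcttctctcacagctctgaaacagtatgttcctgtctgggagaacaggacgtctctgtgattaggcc

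GAGGAA was found in 5 of the 7 promoters (*Marco*, *Cd5l*, *Fcgr1*, *C1qb* and *C1qc*) and in 28.3% of all 32851 promoters of the table. In the sequences above it starts 55 bases before the start of *Fcgr1*, 30 before that of *C1qb* and 193 before that of *C1qc*. These starts are RefSeq's. For *C1qc*, the gene coordinates given above reach to 136893065, upstream of RefSeq's start, so the distance depends on the start taken. TTCNNNGAA was found in 1 of the 7, that of *Fcgr1*, 109 bases before the start, and in 8.30% of all promoters. The ISRE was found in 0 of the 7 and in 3.44% of all promoters. These matches are a description of letters in a window.

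*Marco* (chromosome 1, 120474538 to 120505024, minus strand, GRCm38) encodes a scavenger receptor that binds bacteria and particles. It stood at 98.5, 106, 104 and 105 CPM in the WT libraries, against 158, 165 and 104.7 CPM in those of WDR6-WKO. WDR6-WKO replicates 1 and 2 were above every WT library, as for *C1qa*. Replicate 3 lay within the WT range. The log2 fold change was 0.46 (s.e. 0.15, edgeR adjusted p = 0.0880, exact permutation p = 0.0857). Without WDR6-WKO replicate 3 it was 0.64 and passed (edgeR adjusted p = 7.66e-12), and with the correction for GC content and length it was 0.41 (edgeR adjusted p = 0.0976). *Marco* also passed with all 7 libraries in DESeq2 (adjusted p = 0.00110) and in limma-voom (adjusted p = 0.0288).

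*Cd5l* (chromosome 3, 87357881 to 87371073, plus strand, GRCm38) encodes AIM, a secreted protein of macrophages that binds lipids and circulates with IgM. It was the most abundant of the 10 genes in CPM, at 208, 207, 219 and 219 in WT and 238, 269.9 and 217 in WDR6-WKO. Replicates 1 and 2 of WDR6-WKO were above the WT range and replicate 3 within it. The log2 fold change of 0.18 (s.e. 0.06) did not pass (edgeR adjusted p = 0.0687). Without WDR6-WKO replicate 3 it was 0.25 and passed (edgeR adjusted p = 9.89e-05). With the correction for GC content and length it was 0.14 (edgeR adjusted p = 0.0505).

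The 3 remaining genes are receptors at the surface of macrophages, and none passed the test with all 7 libraries. *Adgre1* (chromosome 17, 57358691 to 57483527, plus strand, GRCm38), which encodes F4/80, the most widely used marker of mouse macrophages, stood at 14.5, 16.7, 17.8 and 18.4 CPM in the WT libraries, against 19.1, 20.4 and 20.8 CPM in those of WDR6-WKO. The groups did not overlap, although WT replicate 4 and WDR6-WKO replicate 1 were close. Its log2 fold change was 0.25 (s.e. 0.09, edgeR adjusted p = 0.0866, exact permutation p = 0.0571). After the correction for GC content and length it was also 0.25, with an edgeR adjusted p = 0.0426.

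*Csf1r*, the receptor for the growth factors CSF1 and IL-34, stood at 57.2, 63.6, 63.7 and 62.8 CPM in the WT libraries, against 67.8, 69.6 and 62.6 CPM in those of WDR6-WKO. Replicate 3 lay within the WT range. The log2 fold change was 0.11 (s.e. 0.06, edgeR adjusted p = 0.261), and 0.15 without WDR6-WKO replicate 3 (edgeR adjusted p = 0.0476). At its locus (chromosome 18, 61100598 to 61132149, plus strand, GRCm38), 873 exon bases overlap *Hmgxb3* on the opposite strand. *Hmgxb3* was at 47.0 to 50.9 CPM in WT and 48.9 to 52.3 CPM in WDR6-WKO, and reads of the overlap cannot be assigned to either gene, since the strand setting of the counting is not given in the sources used here.

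*Clec4f* (chromosome 6, 83644542 to 83656187, minus strand, GRCm38) stood at 111, 119, 115 and 125 CPM in the WT libraries, against 119.7, 138 and 119.6 CPM in those of WDR6-WKO. WDR6-WKO replicates 1 and 3 lay within the WT range. Its log2 fold change was the smallest of the 10 genes, 0.10 (s.e. 0.06, edgeR adjusted p = 0.311). It was 0.13 without WDR6-WKO replicate 3 (edgeR adjusted p = 0.0703), and it passed in 0 of the 16 alternative fits.

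**Figure D2:**
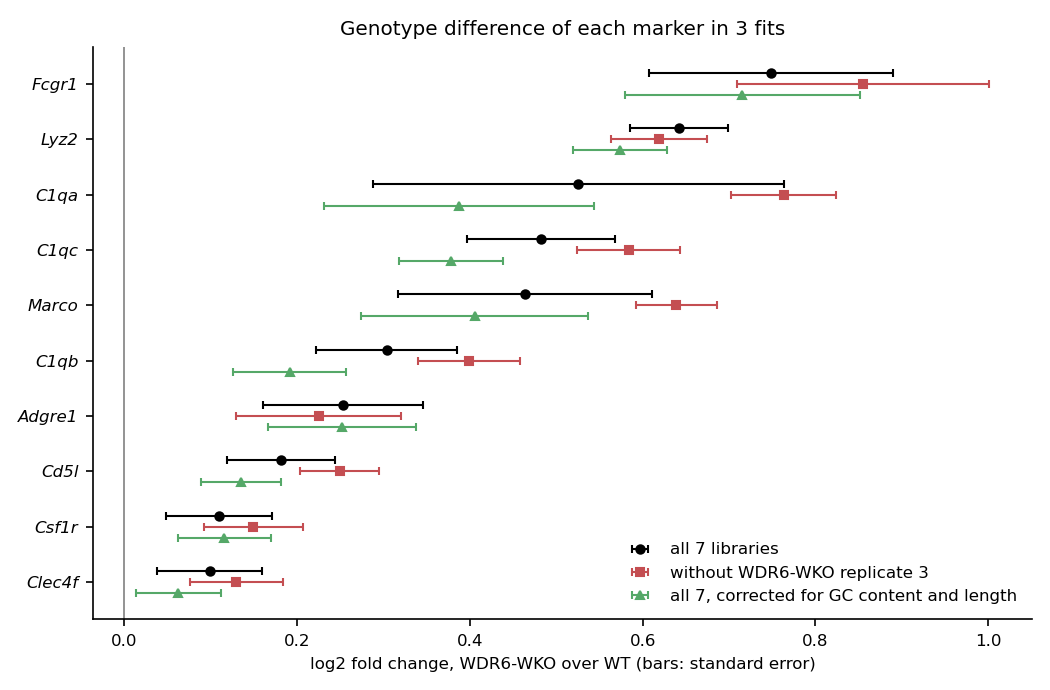
Log2 fold change of each gene, WDR6-WKO over WT (points, with the standard error as bars), from all 7 libraries (black), without WDR6-WKO replicate 3 (red) and with all 7 libraries after correction for GC content and length (green). *C1qa* moved the most, from 0.53 to 0.76 and 0.39, while *Lyz2* lay between 0.57 and 0.64 in the 3 fits.

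WDR6-WKO replicate 3 was then set against the other WDR6-WKO libraries. It stood at 161% of the WT mean for *Lyz2*, at 140% for *Fcgr1*, at 124% for *Adgre1* and at 118% for *C1qc*. For the other 6 genes it lay between 90.1% (*C1qa*) and 106% (*C1qb*). In contrast, the mean of WDR6-WKO replicates 1 and 2 was above WT for every gene, from 110% for *Clec4f* to 181% for *Fcgr1*, with 170% for *C1qa* and 156% for *Marco*. Without replicate 3, 8 of the 10 genes were higher at an edgeR adjusted p under 0.05, with *Adgre1* and *Clec4f* as the exceptions, where 14.5% of all genes tested were higher.

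GC content moved with this difference across all genes. The log2 level in replicate 3 minus the mean of replicates 1 and 2 was taken over 10 groups of genes of rising GC content. Its median was 0.20 in the lowest group and −0.23 in the highest. Relative to the WT mean, the median of the highest group was 0.13 in WDR6-WKO replicate 1, 0.12 in replicate 2 and −0.11 in replicate 3, so that the 3 libraries lay on both sides of WT. The transcripts of the 10 genes had from 47.2% (*Adgre1*) to 59.5% (*C1qa*) GC.

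*C1qa* was lower in replicate 3 than in replicates 1 and 2 by a log2 difference of −0.91 and *Marco* by −0.62, both below the fifth percentile of the genes in the same GC group (−0.65 and −0.48). After correction for GC content and length, *C1qa* was still at −0.59 and *Marco* at −0.48. For *C1qb* and *C1qc*, the corrected differences were −0.06 and −0.08, down from −0.32 and −0.34. In corrected CPM, *C1qb* stood at 60.9, 68.9, 76.8 and 75.7 in WT, and 82.1, 81.0 and 78.4 in WDR6-WKO, without overlap. Corrected *C1qa* was 48.4 CPM in WDR6-WKO replicate 3, within the WT range, against 70.7 and 75.4 CPM in replicates 1 and 2.

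With this correction and all 7 libraries, 4 of the 10 genes were higher at an edgeR adjusted p under 0.05 (*Lyz2*, *C1qc*, *Fcgr1* and *Adgre1*), where 9.18% of all genes tested were higher. With the correction and without replicate 3, 6 of the 10 were higher (*Lyz2*, *C1qc*, *Fcgr1*, *C1qa*, *Marco* and *Cd5l*), where 12.5% of all genes tested were higher. *C1qb* and *Csf1r*, which passed without replicate 3 before the correction, did not pass after it (edgeR adjusted p = 0.0778 and 0.0841). *Lyz2*, *Fcgr1* and *C1qc* thus passed in every fit named here.

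**Figure D3:**
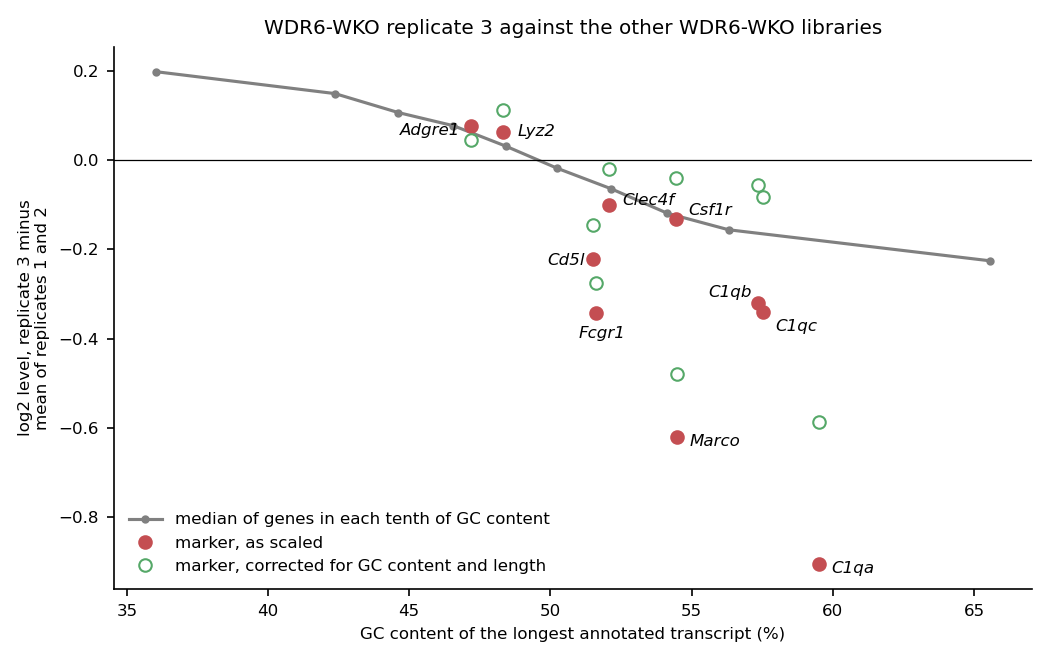
Log2 level in WDR6-WKO replicate 3 minus the mean of WDR6-WKO replicates 1 and 2 (vertical axis) against the GC content of the longest annotated transcript (horizontal axis, percent), for the 10 genes before (filled) and after (open) the correction, and as the median of all genes in each of 10 groups of GC content (grey line, placed at the middle of each group's range). The grey line falls from 0.20 to −0.23, and *C1qa* and *Marco* lie well below it.

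Ratios between the genes within a library do not depend on library scaling. The ratio of *C1qb* to *C1qa* was 1.17, 1.44, 1.49 and 1.59 in WT, and 1.14, 1.06 and 1.66 in WDR6-WKO, so WDR6-WKO replicate 3 was the highest library and WDR6-WKO replicates 1 and 2 were the lowest. The ratio of *Fcgr1* to *Adgre1* was 0.300, 0.276, 0.275 and 0.281 in WT and 0.492, 0.382 and 0.319 in WDR6-WKO, without overlap. That of *Lyz2* to *Adgre1* was 3.32, 2.91, 2.94 and 2.64 in WT and 4.05, 3.66 and 3.82 in WDR6-WKO, also without overlap.

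On the log2 scale, *Fcgr1* to *Adgre1* differed by 0.47 (exact permutation p = 0.0286) and *Lyz2* to *Adgre1* by 0.38 (exact permutation p = 0.0571). Both had an adjusted p of 0.143 over the 5 ratios compared, and none of the 5 passed. *Clec4f* to *Adgre1* differed by −0.16 (exact permutation p = 0.114), *C1qb* to *C1qa* by −0.16 (p = 0.457) and *C1qc* to *C1qa* by 0.01 (p = 0.886), all two-sided.

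To compare levels between genes, CPM was divided by the length of the longest annotated transcript. In WT, *Cd5l* was the highest, at 105 ± 3.16 CPM per kb, followed by *C1qb* at 62.8, *Marco* at 53.7, *C1qc* at 52.4, *Clec4f* at 47.5, *C1qa* at 46.5, *Lyz2* at 37.6, *Csf1r* at 13.2, *Adgre1* at 5.21 and *Fcgr1* at 1.84 CPM per kb. Between *Marco* and *C1qa* the ranges of neighbours overlapped, so the order of these 4 was not resolved. All other neighbours had separate ranges in the 4 WT libraries.

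The genes also differed in how they varied between libraries of 1 genotype. After the mean of each genotype was removed, *C1qb*, *Marco*, *C1qc*, *Cd5l* and *Csf1r* followed the mean of the other 9 genes with a Pearson r of 0.82 to 0.96 over 7 libraries, while *Adgre1* had an r of 0.08 and *Lyz2* of −0.32. These values are descriptions, and they share library, depth and GC content. They also rest largely on WDR6-WKO replicate 3. There the mean of the 10 genes deviated by −0.19 on the log2 scale. It deviated by 0.06 and 0.13 in WDR6-WKO replicates 1 and 2, and by −0.07 to 0.05 in the WT libraries. The genes whose log2 CPM was most like the mean of the 10, by the same measure over 13431 genes, were *Dhcr7* (r = 0.996), *R3hcc1* (0.993), *Gm7816* (0.991), *Actl6a* (0.989) and *Slc25a47* (0.987). None of these 5 belongs to the lists of macrophage genes. Among the listed genes the highest was *C1ra*, a protease that works with C1q, at 0.970 and rank 28.

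Lists of other genes were set beside the 10. At an edgeR adjusted p under 0.05, 6.65% of all genes tested were higher and 6.18% lower, the shares to set beside the count of each list. Of 11 other genes known from Kupffer cells, 0 were higher and 1 was lower at an edgeR adjusted p under 0.05. The median log2 difference was −0.07, that of *Nr1h3*. Of this list, *Nr1h3*, *Hmox1*, *Slc40a1* and *Id3* are also expressed by hepatocytes. *Hmox1* (547 CPM in WT) and *Slc40a1* made up most of its summed level, 1177 to 1212 CPM in WT. The gene that fell was *Slc40a1*, which encodes ferroportin, the iron exporter of macrophages and hepatocytes. It stood at 293, 301, 299 and 309 CPM in WT and 228, 225 and 251 CPM in WDR6-WKO, a log2 fold change of −0.36 (edgeR adjusted p = 1.97e-04), without overlap. The other 10 did not pass. At an unadjusted p under 0.05, 1 gene of the list was higher (*Vsig4*) and 2 were lower (*Slc40a1* and *Timd4*). *Timd4* stood at 2.87 to 4.02 CPM in WT and 2.29 to 2.84 CPM in WDR6-WKO, without overlap. At an adjusted p under 0.05, DESeq2 and limma-voom also called 0 higher and 1 lower. The counts were 1 higher and 2 lower without WDR6-WKO replicate 3, 1 and 1 with the replicate block, and 0 and 2 after the correction for GC content and length. The 10 include 3 genes chosen after their values were seen, the complement receptor *Vsig4* (0.22, adjusted p = 0.145), the haemoglobin receptor *Cd163* (0.09, adjusted p = 0.584) and *Timd4*, a receptor for dying cells (−0.48, adjusted p = 0.0880).

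Of 15 genes shared by most myeloid cells, 7 were higher and 0 lower, where 6.65% of all genes tested were higher. The median of the list was 0.18. *Tyrobp* and *Fcer1g* encode adaptors that carry the signals of many myeloid receptors. *Tyrobp* stood at 10.5, 11.6, 12.1 and 13.8 CPM in WT and 18.2, 20.1 and 17.1 CPM in WDR6-WKO (log2 fold change 0.62, edgeR adjusted p = 8.06e-04). *Fcer1g* rose by 0.66 (edgeR adjusted p = 6.66e-04). The groups did not overlap for either gene.

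*Itgam* and *Itgb2* encode the chains of the integrin CD11b/CD18, which is abundant on monocytes, neutrophils and macrophages derived from monocytes. *Itgam* stood at 2.67 to 2.87 CPM in WT and 4.64 to 5.72 CPM in WDR6-WKO (log2 fold change 0.91, edgeR adjusted p = 8.48e-04). *Itgb2* rose by 0.29 (edgeR adjusted p = 0.00792). Replicate 3 of WDR6-WKO was above every WT library for both. Summed over the 15 genes, WT libraries lay between 817 and 857 CPM and WDR6-WKO libraries between 907 and 931 CPM, and here replicate 3 was the highest. The count of 7 fell to 4 without WT replicate 2 or without WDR6-WKO replicate 1.

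Other cell types that the preparation could hold were described in the same way. Of 6 genes of recruited monocytes, *Ly6c2*, *Ccr2* and *Cx3cr1* were not analysed here. Of the 3 tested, *Chil3* rose, from 0.922 ± 0.426 to 2.19 ± 0.102 CPM, by 1.24 on the log2 scale (edgeR adjusted p = 0.0122). It has few reads, and a filter of 10 counts in every library removed it. The 3 genes summed to 17.3 to 18.9 CPM in WT and 19.3 to 23.6 CPM in WDR6-WKO. Of 8 neutrophil genes, *Csf3r* alone was tested, at 1.77 ± 0.407 CPM in WT and a log2 fold change of −0.12 (adjusted p = 0.80), and *S100a8* and *S100a9* were not analysed here. None of the 8 lymphocyte genes was among the genes tested. The part of recruited monocytes in the differences of *Lyz2* and *Fcgr1* was not tested.

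Of 9 genes of sinusoidal endothelial cells, 0 were higher and 1 was lower, *Tek*, the angiopoietin receptor, at a log2 fold change of −0.45 (edgeR adjusted p = 0.0185). Of 8 genes of stellate cells, *Dcn*, a matrix proteoglycan, rose by 0.28 (adjusted p = 0.0282), and *Ecm1* fell by 0.27 (adjusted p = 0.00470). *Dcn* was at 0.21 without WDR6-WKO replicate 3 and did not pass (edgeR adjusted p = 0.0547), while *Des* (0.27, adjusted p = 0.0369) and *Col3a1* (0.17, adjusted p = 0.00492) did, both named after their values were seen. The stellate list held 1 lower call with each library left out in turn. Of 4 cholangiocyte genes, the transcription factor gene *Sox9* rose by 0.20 (adjusted p = 0.0279). The median log2 fold changes of these lists were −0.01, 0.05 and 0.07. The summed levels of the endothelial, stellate and cholangiocyte lists overlapped between the genotypes. The endothelial count was 0 without WT replicate 3 or 4 or WDR6-WKO replicate 2, the stellate count was 0 higher and 1 lower without WT replicate 1 or 2 or WDR6-WKO replicate 1 or 2, and the cholangiocyte count was 0 without WT replicate 1, 2 or 3 or WDR6-WKO replicate 1 or 2.

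Of the 8 hepatocyte genes tested, 5 were lower and 0 higher (median log2 fold change −0.51), where 6.18% of all genes tested were lower. The urea cycle gene *Cps1* stood at 33.9 to 44.4 CPM in WT and 22.9 to 26.9 CPM in WDR6-WKO (−0.69, edgeR adjusted p = 1.14e-04). The others were the transcription factor gene *Hnf4a* (−0.27, adjusted p = 0.00502), the apolipoprotein gene *Apoa1* (−0.69, adjusted p = 0.0160), *Pck1* of gluconeogenesis (−1.73, adjusted p = 0.00925) and *Cyp2e1*. *Alb* did not pass, at −0.18 (adjusted p = 0.101). Summed over the 8 genes, WDR6-WKO libraries lay between 82.4 and 88.0% of the WT mean. *Alb* made up most of this sum, and WT replicate 1 (8017 CPM) was close to the WDR6-WKO libraries (7416 to 7920 CPM). The part of these hepatocyte differences in the levels of the 10 macrophage genes was not tested.

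**Figure D4:**
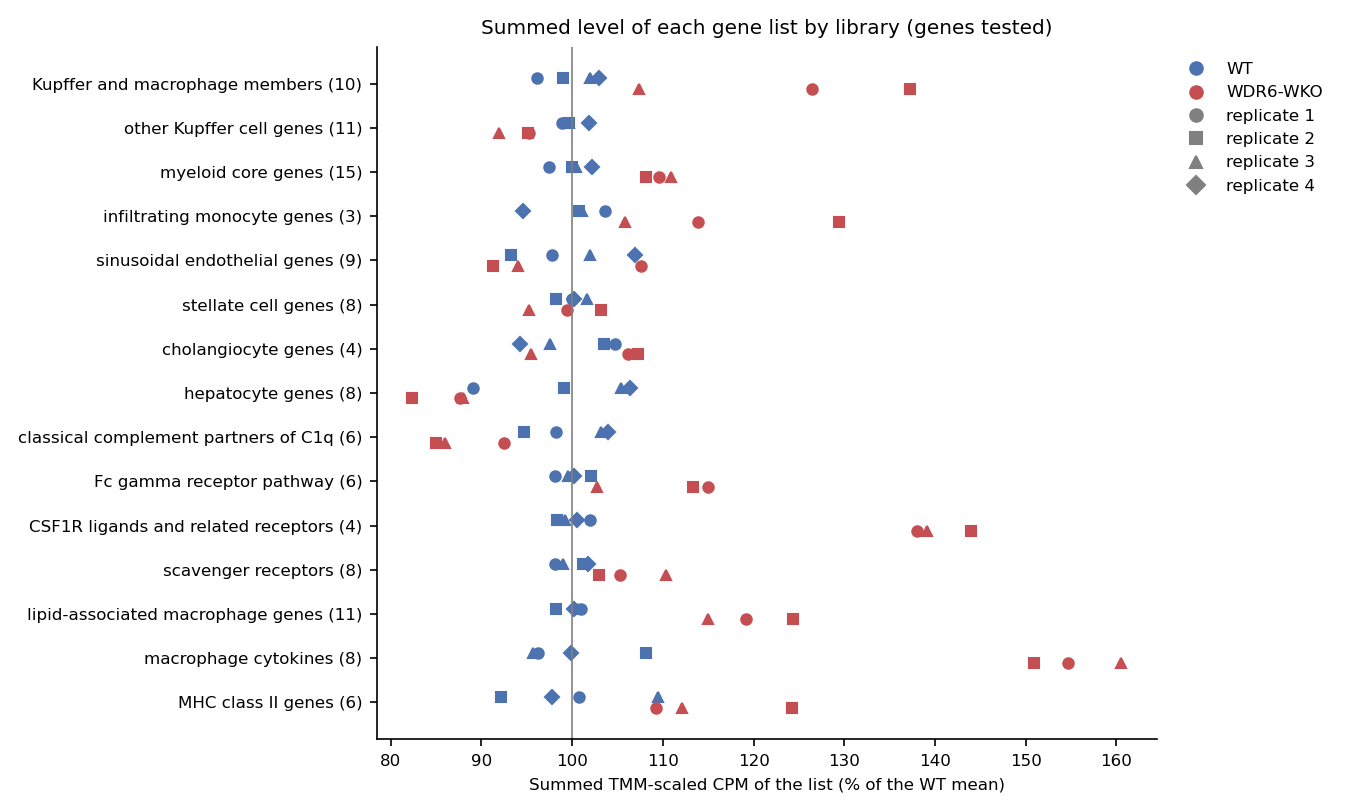
Summed TMM-scaled CPM of each gene list in each library, as a percentage of the mean of the 4 WT libraries (blue, WT; red, WDR6-WKO; the symbol gives the replicate number, and the number of genes tested follows each name). For the 10 macrophage genes, WDR6-WKO replicates 1, 2 and 3 stood at 126, 137 and 107%, whereas the myeloid core list was between 108 and 111% in all 3.

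The pathways around the 10 genes were taken in turn. Of 6 genes that act with C1q in the classical pathway, 0 were higher and 1 was lower, *C3*, the central component, which hepatocytes make. It was at 3760 ± 190.2 CPM in WT and 3146 ± 142 CPM in WDR6-WKO, a log2 fold change of −0.26 (edgeR adjusted p = 0.00336). *C1ra* (0.01), *C1s1* (−0.12), *C2* (−0.04), *C4b* (0.02) and *Serping1* (0.10), the inhibitor of C1, did not pass. The C1q genes and their partners are shown side by side here, and the difference between the lists was not tested.

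Of 6 genes of the Fc gamma receptor pathway beside *Fcgr1*, 3 were higher and 0 lower, where 6.65% of all genes tested were higher. The median of the list was 0.36. *Fcgr3*, a low-affinity activating receptor, stood at 13.6, 16.3, 15.2 and 15.3 CPM in WT and 20.8, 21.6 and 20.1 CPM in WDR6-WKO (0.47, edgeR adjusted p = 0.00200). *Fcer1g*, given above, encodes the common signalling chain of these receptors, and the kinase gene *Syk* downstream of it rose by 0.40 (edgeR adjusted p = 0.00403). *Fcgr2b*, the inhibitory receptor, was at 26.9 ± 2.40 CPM in WT and 26.5 ± 2.38 CPM in WDR6-WKO, a log2 fold change of −0.02 (adjusted p = 0.914). *Fcgr4* was at 0.32 (adjusted p = 0.0958) and *Fcgrt*, the neonatal Fc receptor, at −0.20 (adjusted p = 0.0862). After the correction for GC content and length *Fcgrt* was lower, at −0.26 (edgeR adjusted p = 0.00156), and the list stood at 3 higher and 1 lower.

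Both ligands of CSF1R were higher, while *Csf1r* itself did not pass. *Csf1* stood at 53.4 to 57.1 CPM in WT and 82.1 to 86.0 CPM in WDR6-WKO. The groups were far apart, and the spread within each was small. Its log2 fold change was 0.62 (s.e. 0.05, edgeR adjusted p = 1.82e-06). *Il34* rose by 0.32 (edgeR adjusted p = 0.0481), a call lost after the correction for GC content and length (adjusted p = 0.0577). *Csf2rb*, the shared beta chain of the GM-CSF receptor, rose by 0.33 (edgeR adjusted p = 0.00815), and *Csf2ra*, its alpha chain, was at 0.30 (adjusted p = 0.109). Without WDR6-WKO replicate 2, 1 of the 4 genes of this list passed. The count was 2 rather than 3 in DESeq2, in limma-voom, with median-of-ratios scaling, after the correction for GC content and length, and without WT replicate 2, 3 or 4 or WDR6-WKO replicate 1.

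Of 8 scavenger receptor genes beside *Marco*, 0 passed the edgeR test, with a median of 0.10. DESeq2 and limma-voom also called 0, and 2 were higher at an unadjusted p under 0.05. The most abundant were *Scarb2*, a lysosomal membrane protein, at 258 ± 3.46 CPM in WT and a log2 fold change of 0.07 (adjusted p = 0.318), and the fatty acid receptor gene *Cd36* at 158 ± 3.84 CPM and 0.12 (adjusted p = 0.334). After the correction for GC content and length, 4 of the 8 were higher, *Cd36* among them (adjusted p = 0.0331). In that fit, 9.18% of all genes tested were higher.

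Of 11 genes known from lipid-associated macrophages, many of them also expressed by other cells, 6 were higher and 0 lower. Over all genes tested, 6.65% were higher. The median of the list was 0.22. *Gpnmb*, a lysosomal glycoprotein, stood at 74.0, 66.8, 68.5 and 68.1 CPM in WT and 139, 136 and 139.9 CPM in WDR6-WKO (0.99, edgeR adjusted p = 1.38e-08). *Gpnmb* was already known to be higher in these data when it was listed, so its call adds nothing to the count. *Spp1*, which encodes osteopontin, rose by 0.31 (adjusted p = 0.00372). The lysosomal proteases *Ctsb* and *Ctsd* rose by 0.22 (adjusted p = 0.00314) and 0.18 (adjusted p = 0.0128). All 3 WDR6-WKO libraries were above the WT range for these 4 genes. Without WT replicate 3 or 4, 3 of the 11 passed.

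Of 8 cytokine and mediator genes of macrophages, 5 were higher and 0 lower, where 6.65% of all genes tested were higher. The median of the list was 0.43. *Il1rn*, which encodes the antagonist of the IL-1 receptor, stood at 26.6, 36.7, 31.2 and 29.8 CPM in WT and 77.0, 74.7 and 85.7 CPM in WDR6-WKO (1.35, edgeR adjusted p = 2.22e-07). The monocyte chemoattractant *Ccl2* stood at 180 ± 8.53 CPM in WT and 255 ± 2.45 CPM in WDR6-WKO (0.51, edgeR adjusted p = 4.59e-06). *Ptgs2*, the inducible cyclooxygenase, rose by 0.71 (adjusted p = 0.00226) and the chemokine *Ccl4* by 0.59 (adjusted p = 0.0107). The cell types that made this RNA cannot be told apart in such bulk samples. *Il1b*, *Il6*, *Il10* and *Nos2* were not analysed here.

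Of 6 MHC class II genes, 0 passed the edgeR test in either direction, with a median of 0.18. DESeq2 and limma-voom also called 0, and 0 had an unadjusted p under 0.05. The most abundant, *Cd74*, the invariant chain, was at 5.00 ± 1.05 CPM in WT and 5.93 ± 0.620 CPM in WDR6-WKO (0.24, adjusted p = 0.366), and *H2-DMb1* was at 0.12 (adjusted p = 0.790). At 1 to 2 CPM for the other genes, small differences were not detectable at this depth.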

How the data were processed

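Reads of primary hepatocytes were aligned by the authors to the mouse genome (GRCm38, mm10) with Bowtie2 2.2.3, per the labels, and the authors deposited raw counts per gene symbol for 4 WT and 3 WDR6-WKO libraries. The counting tool, its annotation and strand setting are not given in the sources used here. The smallest total of a gene over the 7 libraries was 50, so genes with few reads were not analysed here. The 10 genes, the 16 other lists and the rules for naming genes were chosen with earlier results of these data known.

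Counts were scaled with TMM, filtered with filterByExpr and tested with edgeR 4.0.16 (robust quasi-likelihood test, R 4.3.3), WDR6-WKO against WT without a replicate block. Benjamini-Hochberg adjustment covered all 14779 genes tested. Over the genes, the biological coefficient of variation was 7.40%. Single genes and ratios were also tested with exact two-sided permutation tests over all 35 assignments of the libraries, on log2(CPM + 0.5) for genes. Ratios were adjusted over the 5 compared. The replicate numbers did not pair the libraries: the deviations of same-numbered libraries correlated with r = 0.0396, 0.0202 and 0.0380.

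Alternatives were DESeq2 1.42.0, limma-voom (limma 3.58.1), other scalings, filters, pseudocounts and thresholds, a replicate block, and each library left out. The correction for GC content and length, a smooth curve per library used as an offset, was added after the data had been seen and covered 99.2% of the genes tested. Coordinates, transcripts and GC content came from GENCODE M21 (GRCm38). Of each list, genes past an adjusted p of 0.05 were named (at most 4, by p), or the 2 most abundant where none passed. Other genes of the C1q, Fc gamma receptor, CSF1R, hepatocyte and Kupffer cell lists were named after their values were seen. In simulated data, the edgeR steps recovered 170 of 200 genes changed by a log2 fold of 1, with 11 false calls among 14709 genes.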

Additional observations from a re-analysis of the deposited data

Results flagged for a closer look

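Among 61 groups of 4 WT libraries tested for a value that stands apart (Dixon's ratio of the gap to the range), 3 were past the limit, where chance passes about 1 in 20 groups. For *Lyz2*, WT replicate 3 (52.4 CPM) stood above the other WT libraries (48.0 to 48.6 CPM), with a ratio of 0.853, and it was still far below the lowest WDR6-WKO library at 74.7 CPM. For *Csf1r*, WT replicate 1 (57.2 CPM) stood below the others (62.8 to 63.7 CPM), with a ratio of 0.862. Without this library, the log2 fold change of *Csf1r* was 0.07 (edgeR adjusted p = 0.501). For *Scarb2*, WT replicate 1 (253 CPM) stood below the others (259 to 259.9 CPM), with a ratio of 0.839. Groups of 3 libraries, and so WDR6-WKO replicate 3, were not tested in this way.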

How the results depend on the processing

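All 10 genes kept a positive log2 fold change in all 16 alternative fits, from 0.03 to 0.85, and *C1qc*, *Lyz2* and *Fcgr1* passed in all 16. *C1qb* passed in 9, *Marco* in 4, *Cd5l* in 3, *C1qa* and *Adgre1* in 2 each, *Csf1r* in 1 and *Clec4f* in 0. Leaving out each library in turn gave 3 to 8 of the 10 genes higher. The count was 8 without WDR6-WKO replicate 3, where 14.5% of all genes tested were higher. It was 3 without WDR6-WKO replicate 1 or 2 or WT replicate 1 or 2, where *C1qb* was lost. Ranges were separate for 4 to 9 of the 10 (9 without WDR6-WKO replicate 3). The share over all genes is not given for these range counts, and ranges of fewer libraries separate more easily. In all, 1032 to 4233 genes were called, against 1897 with all libraries. The extremes were WDR6-WKO replicate 2 (1032) and replicate 3 (4233). Without WDR6-WKO replicate 3 and after the GC content and length correction, 3653 genes were called. An adjusted p under 0.01 gave 862 genes. One under 0.1 gave 7 of the 10 higher, against 9.95% of all genes tested. With library sizes alone, 5 of the 10 genes had an exact permutation p under 0.05, against 3. The share over all genes is not given for these permutation counts. That scaling moved all genes upwards, with 1212 higher and 696 lower in edgeR, against 983 and 914 in the main fit. With the replicate number as a block (replicate block), 4 of the 10 genes passed and 1762 genes were called in all. Under it *C1qb* was lost (adjusted p = 0.0603) and *Adgre1* gained (adjusted p = 0.0434), although the shared numbers did not pair the libraries. Fits without 1 library of WDR6-WKO rest on 2 libraries in that group. No called value of the 10 genes changed direction. The log2 difference of the *C1qc* to *C1qa* ratio, 0.01 with all libraries and not called, was on both sides of 0 with 1 library left out, from −0.18 without WDR6-WKO replicate 3 to 0.12 without WDR6-WKO replicate 1. Of the 10 genes, *Fcgr1* had the largest counting error.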
